A study of Mus musculus with 14 samples.

Results

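Imprinted genes were followed in whole fetal ovaries in which the nuclear receptor gene Coup-tfII, symbol Nr2f2, had been deleted. The set was a list of 40 genes known to be imprinted in the mouse, 19 expressed mainly from the maternal copy, 20 from the paternal copy, and Gnas, which makes transcripts of both kinds. A gene was taken as measured where a probe set, the group of short probes that reads a transcript, carried its symbol and no other. Of the 40 genes, 36 had such a probe set, with 95 probe sets among 45101 in all, and 33 were bright enough to be tested among 12406 tested genes of 18193. The tested genes were 16 maternally expressed, 16 paternally expressed and Gnas. H19, Rtl1, Dio3 and Zrsr1 had no probe set of their own symbol and were not analysed here. H19 stood on 1 probe set that it shared with another gene. Slc22a18, Ascl2 and Snrpn had a probe set of their own but lay below the limit for testing.

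The study compared 4 groups of ovaries on 14 Affymetrix arrays. These were E14.5 KO (3 arrays), E14.5 control (3 arrays), E16.5 KO (4 arrays) and E16.5 control (4 arrays), named by embryonic day, and the labels call the arrays of a group biological replicates. Knockout embryos carried WT1-CreERT2, a recombinase named for the gene Wt1 that tamoxifen switches on, and COUP-TFII flox/flox, the Nr2f2 alleles that it cuts. Tamoxifen was injected into the pregnant mothers on E11.5 and again on E12.5 at 2 mg per 10 g of body weight, and all groups shared a mixed background of C57BL/6, Swiss Webster and B6129SF1/J. The labels describe controls only as ovaries with Coup-tfII, so their alleles, and any presence of the recombinase in them, are unknown here, as is the number of embryos or litters behind an array. The p-values therefore measure the spread between these arrays, whatever share of it is technical.

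Most genes are read from both parental copies. An imprinted gene is read from the copy of a single parent, because DNA methylation, a mark set in the egg or the sperm, differs between the copies. Such genes lie in clusters, each with a control region that often acts on protein-coding genes and long noncoding RNAs at once, and many act on fetal growth, metabolism and the placenta. Germ cells of the fetal ovary erase these marks around the time they settle in the gonad, while the somatic cells around them keep them. The arrays measured the total RNA of a gene and did not tell its parental copies apart, so parent of expression is used below only as a label from general knowledge, and several genes (Ube3a, Trappc9, Blcap, Gatm, Nap1l4, Asb4, Ppp1r9a) are known to be imprinted in some tissues only.

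The change that passed the test lay in Nnat. In the E16.5 knockout the listed genes measured in the Peg3 cluster, Peg3 and Zim1 among them, had log2 changes below 0. None of those passed the test. The sequences of 3 promoters are shown for these reasons. They come from RefSeq (GRCm38.p6), run from 250 bases before to 50 after the start of the transcript, and are given 5′ to 3′ on the gene's strand with every CG, the site of DNA methylation, in capitals. The Nnat window is chr2:157559828-157560127 on the + strand, the Peg3 window chr7:6730370-6730669 on the - strand, and the Zim1 window chr7:6696383-6696682 on the - strand.
Nnat: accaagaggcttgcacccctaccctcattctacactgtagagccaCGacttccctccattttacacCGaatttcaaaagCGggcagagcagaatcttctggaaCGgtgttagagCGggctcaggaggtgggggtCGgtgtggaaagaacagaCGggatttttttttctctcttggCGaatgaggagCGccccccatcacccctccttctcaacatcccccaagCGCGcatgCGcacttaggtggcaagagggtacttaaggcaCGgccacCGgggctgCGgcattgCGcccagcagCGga
Peg3: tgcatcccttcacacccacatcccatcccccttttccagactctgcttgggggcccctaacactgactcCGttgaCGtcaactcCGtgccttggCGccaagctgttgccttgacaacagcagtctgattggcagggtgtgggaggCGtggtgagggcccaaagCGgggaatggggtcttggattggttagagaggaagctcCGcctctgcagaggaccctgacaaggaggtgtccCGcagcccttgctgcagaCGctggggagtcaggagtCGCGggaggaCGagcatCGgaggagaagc
Zim1: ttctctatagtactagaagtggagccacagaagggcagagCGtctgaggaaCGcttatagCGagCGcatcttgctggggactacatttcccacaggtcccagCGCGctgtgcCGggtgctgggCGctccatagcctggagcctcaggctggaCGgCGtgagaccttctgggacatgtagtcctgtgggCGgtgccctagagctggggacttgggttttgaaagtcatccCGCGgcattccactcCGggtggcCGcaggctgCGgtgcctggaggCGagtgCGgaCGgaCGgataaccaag
These windows held 17, 13 and 20 CG pairs. The Peg3 window shared 263 bases with that of Usp29, which starts in the opposite direction from the same stretch. Over 46 promoter windows of 31 imprinted genes in the list, the median was 13 CG pairs, against 7 over 32851 windows of all genes. The sequence AGGTCA, a site that receptors of the COUP-TF family are known to bind, was searched on both strands (TGACCT on the other) and was in none of the 3 windows printed. It was in 2 of the 46 windows (4.35%), 1 of Gatm and 1 of Meg3, and in 16.3% of all windows. A match or its absence describes these letters in these windows only.

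The arrays had been scaled by the authors to a common mean, and their median signals ran from 90.3 to 102.5 at E14.5 and from 118 to 137 at E16.5. Of the 6 probe sets of Nr2f2, 5 had every E16.5 KO array below every E16.5 control array, and 2 passed the test there. At E14.5, 1 of them was separated in this way and 0 passed in limma. The 2 that passed at E16.5 had log2 changes of -2.57 and -1.60. The brightest of the 6 kept a mean of 2534 in E16.5 KO, against 4332 in E16.5 control arrays. Its log2 change of -0.79 did not pass (limma adjusted p = 0.0873). E14.5 control replicate 1 lay below the E14.5 control mean on each of the 6. On 1 it had 19.3, against means of 192 in E14.5 control and 59.7 in E14.5 KO arrays. Without that array, 23 of all genes and 0 of the imprinted genes passed at E14.5, against 5 of all genes with it. The log2 change of Wt1 was -0.23 at the earlier stage and -0.37 at the later one, neither past the test. Summed signals of 7 germ cell markers were 44189 to 60475 in E14.5 KO, 55919.7 to 66582 in E14.5 control, 14766 to 18045 in E16.5 KO and 12819 to 18014 in E16.5 control arrays, and those of 7 pre-granulosa markers 33973 to 40641, 33124 to 45686, 13750.1 to 17019 and 16775 to 18891 in the same groups. In whole ovaries, fewer cells of a type and less RNA per cell cannot be told apart. E16.5 KO replicates 1 and 4 stood apart in the hybridization control bioB, with 11055 and 17321, while the remaining arrays of that stage had 3923 to 5545. Without both arrays, 16 of all genes passed at E16.5 in place of 176, 0 of the 33 imprinted genes passed in limma, and the sign of the change was kept in 24 of the 33.

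At E16.5, 4 days after the last tamoxifen dose, a single imprinted gene differed between knockout and control ovaries by the test. Nnat, which encodes neuronatin, a small membrane protein of the endoplasmic reticulum, was lower in the knockout. The E16.5 KO arrays had signals of 2242, 3006, 2721 and 2813, against 4922, 5177, 4392 and 4559 in E16.5 control arrays. Every knockout array lay below every control array, with means of 2696 ± 325 in E16.5 KO and 4763 ± 354 in E16.5 control (SD, n = 4 each). The change was -0.82 ± 0.18 on the log2 scale (SE; limma adjusted p = 0.0300, over all genes tested), a 1.77-fold lower signal with a 95% interval of -1.20 to -0.44. Nnat had 1 probe set, so no other reading of it was at hand.

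The Nnat call rested on few arrays. Without any 1 of the 4 E16.5 control arrays it no longer passed the threshold of 0.05. The limma adjusted p was 0.0883 without replicate 1, 0.0864 without replicate 2, 0.0613 without replicate 3 and 0.0588 without replicate 4. Nor did it pass without E16.5 KO replicate 1 (limma adjusted p = 0.109), replicate 4 (adjusted p = 0.0602) or both (adjusted p = 0.301). The log2 change itself stayed between -0.88 and -0.73 in every setting tried.

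Across the 33 tested imprinted genes this was 1 lower and 0 higher by limma at E16.5, where 1.42% of all genes tested were called (0.451% lower and 0.967% higher). At an unadjusted p under 0.05 there were 9 of 33, against 18.3% of all genes. Arrays of the groups did not overlap for 7 of the 33, 2 higher and 5 lower in the knockout, against 10.4% of all genes (6.22% higher and 4.22% lower). The median log2 change was 0.035 for maternally expressed genes, 0.055 for paternally expressed genes and 0.053 for all genes tested. A log2 change above 0 was seen in 17 of the 33, against 58.9% of all genes. The 16 maternally expressed genes split into 8 above 0 and 8 below, and the 16 paternally expressed genes into 9 and 7.

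**Figure D1:**
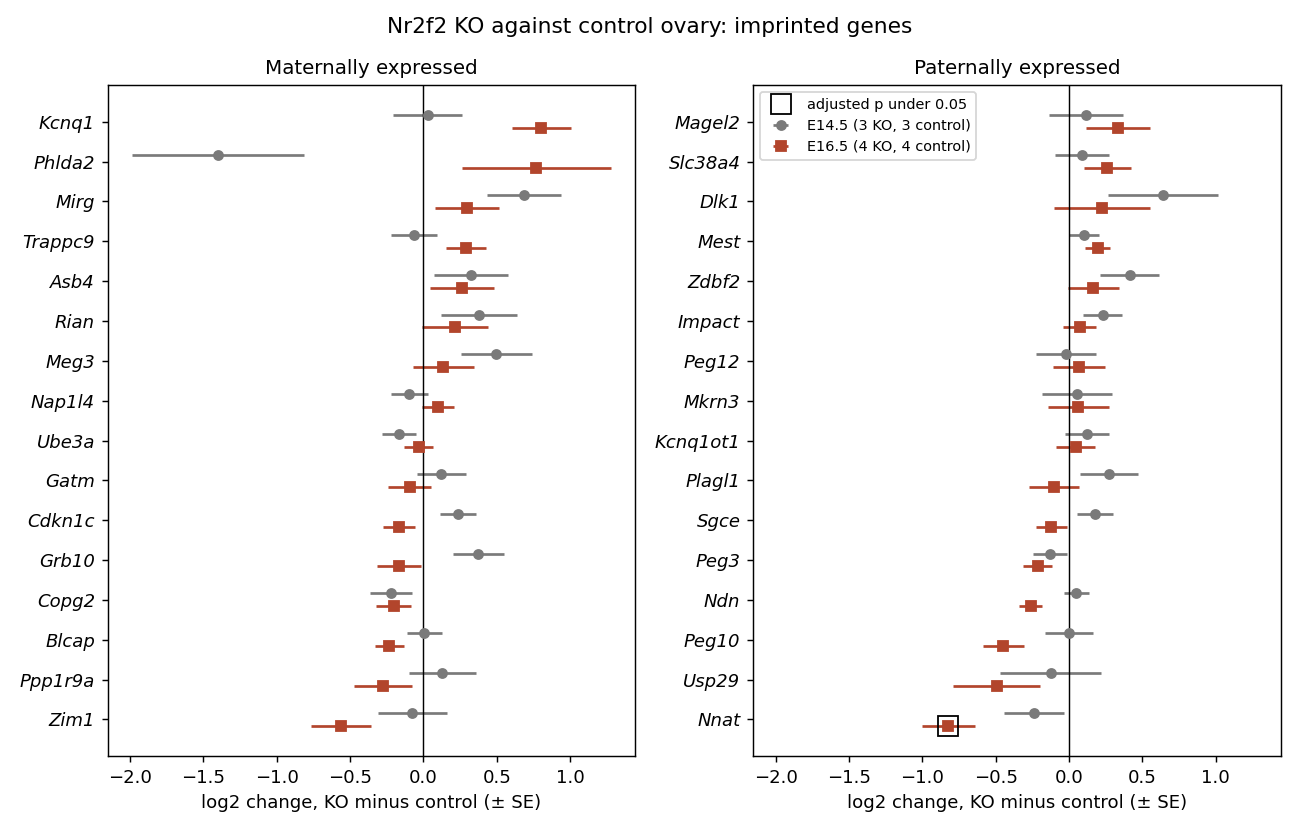
Change of each tested imprinted gene, KO minus control, on the log2 scale (horizontal axis, point ± SE), at E14.5 (grey circles, 3 arrays per group) and E16.5 (red squares, 4 arrays per group), with maternally expressed genes on the left and paternally expressed genes on the right, ordered by the E16.5 change (Gnas, with transcripts of both kinds, is left out). Nnat at E16.5 (-0.82) is the only boxed point, Kcnq1 (0.80) is the highest at E16.5, and Phlda2 has the widest bars.

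Blcap, a maternally expressed gene of apoptosis-related function, holds Nnat within its span, in one of its introns. Its E16.5 KO arrays had 1038, 1176, 1173 and 1114, against 1490.1, 1202, 1301 and 1313 in E16.5 control arrays. The groups did not overlap, though the gap between the highest knockout and the lowest control array was small. The log2 change was -0.23 ± 0.10 (limma adjusted p = 0.235), which did not pass, and it was -0.17 without E16.5 KO replicates 1 and 4.

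Kcnq1, a maternally expressed gene for a potassium channel subunit, was the highest in the knockout at E16.5. It had 345, 250.03, 241 and 322 in E16.5 KO arrays, against 166, 141, 185 and 139.6 in E16.5 control arrays. All knockout arrays lay above all controls, and the change of 0.80 ± 0.20 on the log2 scale just missed the threshold (limma adjusted p = 0.0566). Its interval ran from 0.37 to 1.23. It passed in limma with quantile normalization (adjusted p = 0.0445), with only the E16.5 arrays in the fit (adjusted p = 0.0406), and on leaving out E16.5 KO replicate 2 (adjusted p = 0.0405), E14.5 KO replicate 1 (adjusted p = 0.0474), E14.5 control replicate 1 (adjusted p = 0.0475) or E14.5 control replicate 3 (adjusted p = 0.0478). Without E16.5 KO replicates 1 and 4 its change was 0.60 (adjusted p = 0.516). Kcnq1 lies in the cluster whose control region drives Kcnq1ot1, a paternally expressed noncoding RNA known to silence its neighbours. Kcnq1ot1 had a log2 change of 0.046 ± 0.13, and its 5 tested probe sets ran from -0.54 to 0.11. The other tested genes of the list there were Cdkn1c, an inhibitor of the cell cycle, at -0.17 ± 0.11, Nap1l4, a histone chaperone, at 0.10 ± 0.11, and Phlda2, a restrainer of placental growth, at 0.77 ± 0.51. Imprinted genes there outside the list, named after their values were seen, included Osbpl5 at 0.43, Cd81 at 0.044, Tssc4 at 0.069 and Tspan32 at 0.65. None of these passed. Without E16.5 KO replicates 1 and 4, the 2 arrays with its highest signals there, the change of Phlda2 was 0.13.

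The 3 genes of the list measured in the Peg3 cluster were below 0 at E16.5. Zim3, an imprinted gene of that cluster outside the list, was named after its values were seen. It had a log2 change of 0.15 (limma adjusted p = 0.766), or 0.32 without E16.5 KO replicates 1 and 4. Zim1, a maternally expressed zinc finger gene, had 443, 499, 418 and 298 in E16.5 KO arrays, against 656, 592, 556 and 635 in E16.5 control arrays. Usp29, a paternally expressed gene related to ubiquitin-specific proteases, had 326, 424, 402 and 376 in E16.5 KO arrays, against 553, 478, 497 and 651 in E16.5 control arrays. In both genes every knockout array was below every control. The log2 change was -0.56 ± 0.20 for Zim1 (limma adjusted p = 0.164) and -0.49 ± 0.30 for Usp29 (adjusted p = 0.395), and neither passed. Without E16.5 KO replicates 1 and 4 the changes were -0.40 and -0.38, and with a covariate for the array control Gapdh, described further on, that of Usp29 was -0.047. Peg3, a paternally expressed zinc finger gene that acts on growth and maternal behaviour, had 9005, 13028, 10428 and 11292 in E16.5 KO arrays, against 12619, 12003, 12657 and 13006 in E16.5 control arrays. Its groups overlapped, because E16.5 KO replicate 2 was above every control, and the change was -0.21 ± 0.10 (adjusted p = 0.273). All 3 tested probe sets of Peg3 were below 0, from -0.25 to -0.14. At E14.5 the log2 change was -0.076 for Zim1, -0.12 for Usp29 and -0.13 for Peg3.

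**Figure D2:**
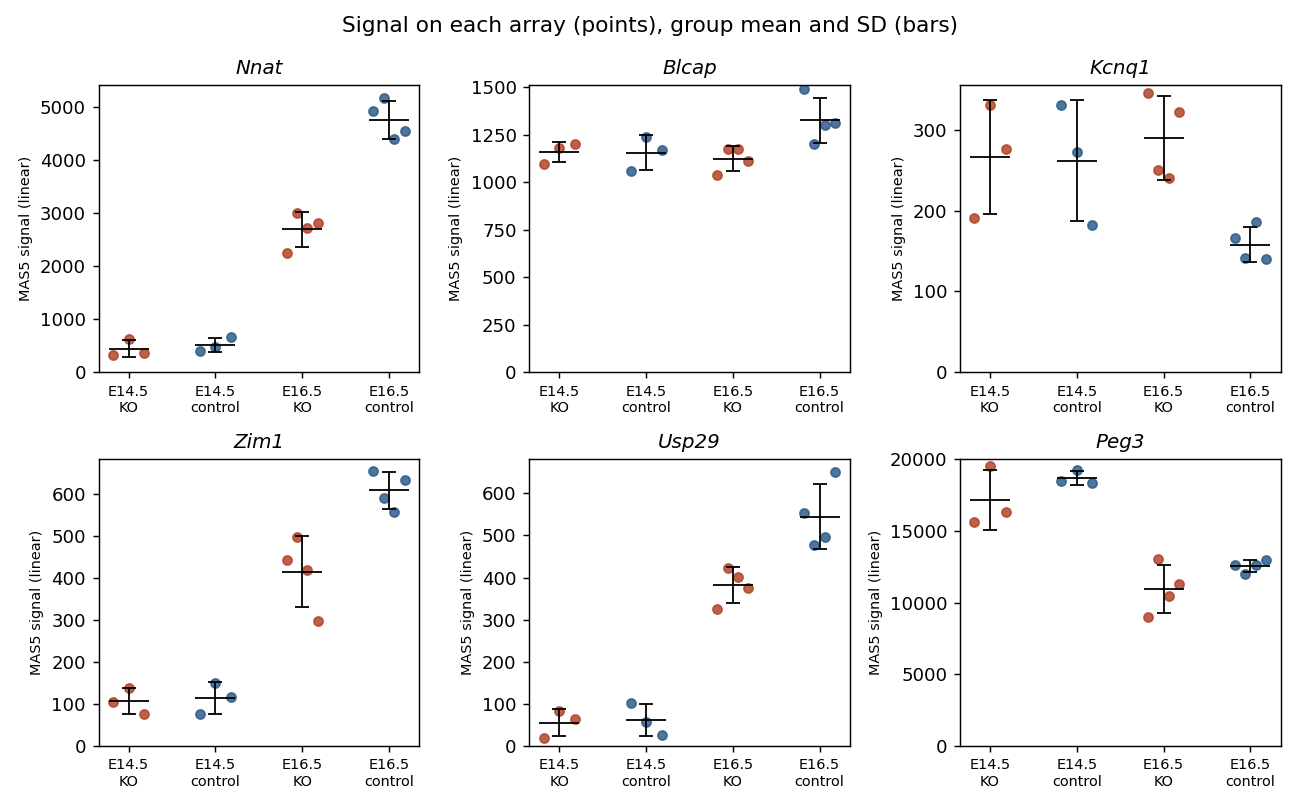
Signal of 6 imprinted genes on each array (vertical axis, linear array signal, starting at 0), in the order E14.5 KO, E14.5 control, E16.5 KO and E16.5 control, with bars for mean and SD. The 4 E16.5 KO arrays sit below the 4 E16.5 control arrays in Nnat, Blcap, Zim1 and Usp29 and above them in Kcnq1, while Peg3 overlaps.

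Among the other paternally expressed genes at E16.5, Ndn, a growth-restraining gene of the Prader-Willi cluster, had 5992, 6481, 6319 and 5866 in E16.5 KO arrays, against 7583, 7074, 7391 and 7508 in E16.5 control arrays. The groups did not overlap and the change was -0.26 ± 0.08 (limma adjusted p = 0.0916), which did not pass, and it was -0.21 without E16.5 KO replicates 1 and 4. The 5 tested probe sets of Ndn disagreed: 2 were below 0 (-0.26 and -0.23) and 3 above, the highest at 0.13. Of the rest of that cluster, Magel2 had 0.33 ± 0.22, Mkrn3 0.064 ± 0.21, Peg12 0.070 ± 0.18 and the maternally expressed ubiquitin ligase gene Ube3a -0.032 ± 0.10, none past the test. Mest, an enzyme of the hydrolase fold family, had 10523, 11465, 12346 and 10897 in E16.5 KO arrays, against 10519, 9149.9, 9489.6 and 10276 in E16.5 control arrays. The knockout arrays were higher without overlap, by a margin of a few units of signal, and the change was 0.20 ± 0.09 (limma adjusted p = 0.236), or 0.27 without E16.5 KO replicates 1 and 4. Peg10, a gene derived from a retrotransposon and needed for the placenta, had 2924, 4548, 3688 and 3027 in E16.5 KO arrays, against 4372, 5282, 4898 and 4553 in E16.5 control arrays. The groups overlapped through a single knockout array, and the change was -0.45 ± 0.14 (adjusted p = 0.119); without that array, E16.5 KO replicate 2, it was -0.57 and passed (limma adjusted p = 0.0284), and without E16.5 KO replicates 1 and 4 it was -0.22 (adjusted p = 0.764).

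Markers of other cells differed at the same stage, and their part in the change of Nnat and in those of the other imprinted genes was not tested. Of 46 marker genes tested 11 were called, against 1.42% of all genes. Without E16.5 KO replicates 1 and 4, 1 of them was called, Wnt5a, a count added after the data were seen. The marker lists were chosen with earlier results of these data known, so these shares are no test of enrichment. Of the 6 interstitial markers tested 2 fell, Pdgfra and Wnt5a (-1.25 and -1.34 on the log2 scale). With Tcf21 and Nr2f2 itself they were the 4 separated downward (4.22% of all genes were), while Dcn and Col1a1 had 0.39 and 0.21. The interstitial sums, which include the deleted gene Nr2f2, were 19413 to 24827 in E16.5 KO and 23481 to 26065 in E16.5 control arrays. Nr2f2 entered them with means of 2534 in E16.5 KO and 4332 in E16.5 control arrays. Part of the difference in these sums was thus that of the deleted gene. Of 3 tested adrenal cortex markers 2 rose, Mc2r and Hao2 (1.46 and 1.49), with sums of 779.6 to 1109 in E16.5 KO and 315 to 423 in E16.5 control arrays. Of 4 surface epithelium markers 2 rose, Krt19 and Upk1b (1.24 and 1.01), with sums of 7967 to 10542 in E16.5 KO and 5258 to 6354 in E16.5 control arrays. Upk3b had 0.48 and Lgals7 -0.12, neither past the test.

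The other calls were spread over several lists. Among 5 endothelial markers Plvap rose (1.18) and Tek fell (-0.68), with sums of 3254 to 4177 in E16.5 KO and 2779 to 3152 in E16.5 control arrays. Among 5 macrophage markers C1qb rose (0.82), all 5 were above 0, and sums were 2384 to 5201 in E16.5 KO and 2157 to 2482 in E16.5 control arrays. Among 3 tested smooth muscle markers Des rose (1.17), with sums of 3652 to 5795 in E16.5 KO and 3325 to 3796 in E16.5 control arrays. Myh11 had 0.64 and Acta2 0.028, neither past the test. Nnat is also known as a gene of the developing nervous system. Of the 2 tested neural and glial markers S100b rose (1.04) and Fabp7 had -1.26, which did not pass (limma adjusted p = 0.0509). The sums of the neural and glial list were 272 to 374 in E16.5 KO and 373 to 485 in E16.5 control arrays. Germ cell, pre-granulosa, duct epithelium and red cell markers gave 0 calls in limma. At an unadjusted p under 0.05 there were 1 of 7, 3 of 7, 2 of 3 and 0 of 1, against 18.3% of all genes. Foxl2 of the pre-granulosa list had -0.83 and just missed the threshold (limma adjusted p = 0.0504). Of the 7 genes of that list 4 were below 0 and 3 above.

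At E14.5, 2 days after the last dose, none of the 33 imprinted genes passed the test. The count was 0 of 33 by limma, against 0.0403% of all genes tested, and at an unadjusted p under 0.05 it was 3 of 33, against 8.55% of all genes. The arrays of the groups did not overlap for 4 genes, 3 higher and 1 lower in the knockout, against 12.7% of all genes (7.84% higher and 4.9% lower). The median log2 change was 0.076 for maternally expressed, 0.096 for paternally expressed and 0.028 for all genes tested. Without E14.5 KO replicate 2 it was 0.011 for maternally and 0.030 for paternally expressed genes. More imprinted genes lay above 0 than below, 23 of 33, against 55.3% of all genes. Markers of other cells gave 0 calls in limma. An unadjusted p under 0.05 was seen in 4 of 7 germ cell, 4 of 6 interstitial and 3 of 3 adrenal cortex markers. It was also seen in 2 of 3 smooth muscle, 2 of 4 surface epithelium and 1 of 3 duct epithelium markers. The neural and glial list had 1 of 2, and the other lists 0. These shares are no test of enrichment, and the part of these markers in the imprinted gene changes was not tested.

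The 3 genes that were higher without overlap at E14.5 were Mirg, Grb10 and Impact. Mirg, a noncoding RNA that hosts microRNAs, had 279, 494 and 277 in E14.5 KO arrays, against 147, 264 and 216 in E14.5 control arrays, a log2 change of 0.69 ± 0.25 (limma adjusted p = 0.424). Grb10, an adaptor that restrains insulin and growth factor signalling, had 6014, 8928 and 5440.0 in E14.5 KO arrays, against 5172, 5329 and 4855 in E14.5 control arrays, a change of 0.37 ± 0.17 (adjusted p = 0.564). In both, E14.5 KO replicate 2 stood well above the other knockout arrays. Impact, a regulator of translation under amino acid shortage, had 1287, 1161 and 1292 in E14.5 KO arrays, against 1004, 1149.7 and 1026 in E14.5 control arrays, a change of 0.23 ± 0.13 (adjusted p = 0.656). The gene that was lower without overlap was Copg2, a coat protein gene next to Mest, with 1358, 1367 and 1324 in E14.5 KO arrays, against 1623, 1674 and 1439.7 in E14.5 control arrays, a change of -0.22 ± 0.14 (adjusted p = 0.694). Slc22a18, below the limit for testing, had 2.33, 38.1 and 75.0 in E14.5 KO arrays, against 89.7, 116 and 92.5 in E14.5 control arrays, also without overlap.

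The 4 measured genes of the Dlk1-Dio3 cluster were all above 0 at E14.5, and were taken up after their values were seen. The paternal copy of this cluster makes Dlk1, a ligand-like membrane protein that restrains differentiation, and the maternal copy makes the noncoding RNAs Meg3, Rian and Mirg. Dlk1 had 705, 2841 and 1098 in E14.5 KO arrays, against 661, 995 and 862 in E14.5 control arrays. Meg3 had 6180.0, 11617 and 5365 in E14.5 KO arrays, against 5066, 5711 and 4717 in E14.5 control arrays. Rian had 3099.9, 6473 and 3154 in E14.5 KO arrays, against 3283, 3281 and 2674 in E14.5 control arrays. A single array, E14.5 KO replicate 2, was highest in all 4 genes, while both other knockout arrays lay in or near the control range for Dlk1 and Rian. The log2 changes were 0.64 ± 0.38 for Dlk1, 0.50 ± 0.24 for Meg3, 0.38 ± 0.26 for Rian and 0.69 ± 0.25 for Mirg, none past the test. Without that array they were 0.087 for Dlk1, 0.16 for Meg3, 0.028 for Rian and 0.42 for Mirg, and that of Grb10 was 0.16. E14.5 KO replicate 2 was the highest of the E14.5 arrays for 14 of the 33 imprinted genes, against 28.4% of all genes tested. At E16.5 the brightest probe sets had 0.22 for Dlk1, 0.14 for Meg3, 0.21 for Rian and 0.30 for Mirg. Of all tested probe sets there, 3 of 4 for Rian (-0.36 to 0.21) and 4 of 11 for Meg3 (-0.27 to 0.43) were below 0, and both were above 0 for Dlk1 and for Mirg. There Dlk1 had 5759, 2296, 2797 and 3013 in E16.5 KO arrays, against 2532, 3326, 2288 and 3095 in E16.5 control arrays, with E16.5 KO replicate 1 alone above the controls. Without E16.5 KO replicates 1 and 4 the changes were -0.13 for Dlk1, -0.18 for Meg3, -0.088 for Rian and 0.089 for Mirg.

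**Figure D3:**
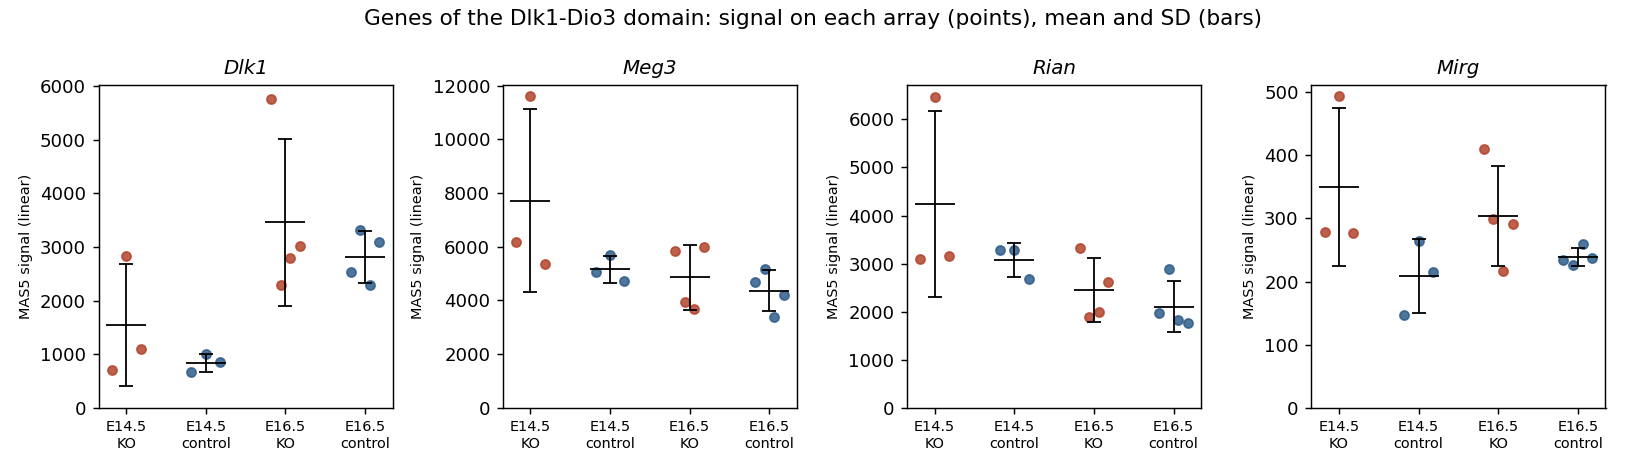
Signal of the 4 measured genes of the Dlk1-Dio3 cluster on each array (vertical axis, linear array signal, starting at 0), in the order E14.5 KO, E14.5 control, E16.5 KO and E16.5 control, with bars for mean and SD. A single E14.5 KO array stands above all others of its stage in each gene, at 2841 in Dlk1 and 11617 in Meg3.

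For the brightest probe set, the size that a change of signal could have had was limited for most genes. These intervals do not cover other probe sets of a gene. Those of Plagl1 ran from 0.27 to 0.999 at E14.5, and those of Grb10 from -0.17 to 0.64 at E16.5. The 95% interval of the knockout change lay within a 2-fold change either way for 29 of 33 genes at each stage and within 1.5-fold for 20 of 33. The exceptions to the 2-fold limit were Meg3, Mirg, Phlda2 and Dlk1 at E14.5, and Phlda2, Kcnq1, Usp29 and Nnat at E16.5. Phlda2 had the widest intervals. It had 68.8, 53.9 and 409 in E14.5 KO arrays, against 667, 163 and 363 in E14.5 control arrays. At E16.5 it had 120.2, 52.2, 60.4 and 208 in E16.5 KO arrays, against 39.5, 68.8, 44.5 and 49.98 in E16.5 control arrays. The groups overlapped at both stages, with a change of -1.40 ± 0.59 on the log2 scale at the earlier stage (limma adjusted p = 0.516) and 0.77 ± 0.51 at the later one (adjusted p = 0.441). Phlda2 passed at E14.5 in 1 other setting, without E14.5 KO replicate 3, where 179 of all genes passed, against 5.

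The knockout change was then compared between the stages. In limma 0 of 33 imprinted genes and 0 of all genes passed the test of that difference, with 6 of 33 and 8.91% of all genes at an unadjusted p under 0.05. The difference, E16.5 minus E14.5, was 2.17 ± 0.78 for Phlda2 (limma adjusted p = 0.525), 0.78 ± 0.31 for Kcnq1 (adjusted p = 0.531) and -0.59 ± 0.27 for Nnat (adjusted p = 0.553). The fall of Nnat at E16.5 was thus not shown to differ from its change of -0.24 ± 0.21 at E14.5, where it had 326, 625 and 364 in E14.5 KO arrays, against 392, 480.2 and 658 in E14.5 control arrays. The sign of the knockout change was the same at both stages for 19 of 33 imprinted genes (57.6%), against 55.9% of all genes.

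Between the stages, many imprinted genes changed, as did most genes. In control ovaries 9 were higher and 15 lower at E16.5 than at E14.5, together 24 of 33, where 64.4% of all genes were called (28.5% higher and 35.9% lower). In knockout ovaries 6 were higher and 13 lower, together 19 of 33, against 60.8% of all genes (27% higher and 33.8% lower). Of these, 18 were called in the same direction in both genotypes (6 higher and 12 lower) and 0 in opposite directions. Among paternally expressed genes 7 were higher and 8 lower in controls, with a median log2 change of -0.15. Among maternally expressed genes 2 were higher and 6 lower, with a median of -0.25, against -0.087 for all genes. Cell markers changed too: in controls all 7 germ cell markers were called lower (median -2.46) and 6 of 7 pre-granulosa markers (median -1.23), and in knockouts 5 of 7 (median -1.72) and 6 of 7 (median -1.20), with the sums given above. Their part in the stage changes was not tested. In knockouts the medians of the imprinted genes were -0.091 for paternally and -0.13 for maternally expressed genes, against -0.077 for all genes.

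These splits depended on the scaling and on the probe set. The median change of all genes in controls was -0.087 as deposited, -0.21 with quantile normalization and -0.43 with each array centred on its median, and -0.077, -0.20 and -0.41 in knockouts. With quantile normalization 10 imprinted genes were higher and 11 lower in controls, and with median centring 6 and 19. In knockouts these were 8 and 9, and 6 and 19. With the mean of all probe sets of a gene in place of the brightest, 15 were higher and 10 lower in controls, and 15 and 8 in knockouts.

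The largest stage change was that of Peg10, which rose with a log2 change of 6.21 ± 0.15 in controls (limma adjusted p = 2.18e-14). It had 4372, 5282, 4898 and 4553 in E16.5 control arrays, against 41.8, 48.5 and 56.9 in E14.5 control arrays. In knockouts it had 2924 to 4548 at E16.5, against 43.5 to 52.3 at E14.5. The E14.5 signals lay below the limit for testing, so the size depends on the constant added before taking logs. Its neighbour Sgce encodes a sarcoglycan and shares a start region with Peg10. In the same controls the brightest probe set of Sgce fell by 0.47, while its other tested probe set had 0.039 and was not called.

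Nnat rose with a log2 change of 3.21 ± 0.19 in controls (limma adjusted p = 4.02e-10), where the E16.5 values given above stood against 392, 480.2 and 658 at E14.5. Usp29 rose with 2.98 ± 0.32, with 478 to 651 in E16.5 control arrays against 101, 55.5 and 26.4 in E14.5 control arrays. Its E14.5 mean of 60.9 lay below the limit for testing, so it was tested through E16.5 and the size depends on the added constant, as for Peg10. Zim1 rose with 2.30 ± 0.22, against 75.7, 151 and 116 in E14.5 control arrays. Usp29 and Zim1 of the Peg3 cluster thus rose while the brightest probe set of Peg3 fell by 0.57. Dlk1 rose with 1.73 ± 0.35 in controls, and both its probe sets rose (1.73 and 1.94). Zdbf2, a zinc finger gene with a role in feeding and growth, rose with 1.65 ± 0.19, with 890.1, 895, 1326 and 1046 in E16.5 control arrays against 355, 305 and 293 in E14.5 control arrays.

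Phlda2 and Mkrn3 led those that fell. Phlda2 had a log2 change of -2.45 ± 0.55 in controls (limma adjusted p = 0.000865), with the arrays given above. Its E16.5 control mean of 50.7 lay below the limit for testing, so it was tested through its other groups and the size depends on the added constant. In knockouts its change was -0.28 ± 0.55 (adjusted p = 0.681), which did not pass, and the test of the difference between the genotypes is the one given above. Mkrn3, a makorin ring finger gene that holds back puberty, fell by 1.93 ± 0.23 in both genotypes. It had 61.0, 95.6, 64.8 and 76.6 in E16.5 control arrays, against 255, 308 and 439.7 in E14.5 control arrays.

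Probe sets of a single gene often went opposite ways between the stages. Of 16 imprinted genes with several tested probe sets, 11 had probe sets called in both directions in controls and 10 in knockouts. Counting only the brightest 2 probe sets of a gene, where both were called, 7 of 11 imprinted genes (63.6%) disagreed in direction in controls, against 40.3% of all genes. In knockouts 4 of 8 (50%) disagreed, against 41.7% of all genes. The brightest probe set of Ube3a fell by 0.68, while another rose with 4.26, with 1001 to 1249.95 in E16.5 control arrays against 44.4, 34.4 and 48.9 in E14.5 control arrays. The brightest probe set of Plagl1, a zinc finger regulator of the imprinted gene network, fell by 0.46, while another rose with 4.27. The probe sets of Peg3 had -0.57, -0.37 and 1.39, all called. Those of Dlk1, Asb4 and Grb10 kept to a single sign in controls. Peg10, Nnat, Zim1, Phlda2, Mkrn3 and Zdbf2 had 1 probe set each, and Usp29 had 1 that was tested.

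**Figure D4:**
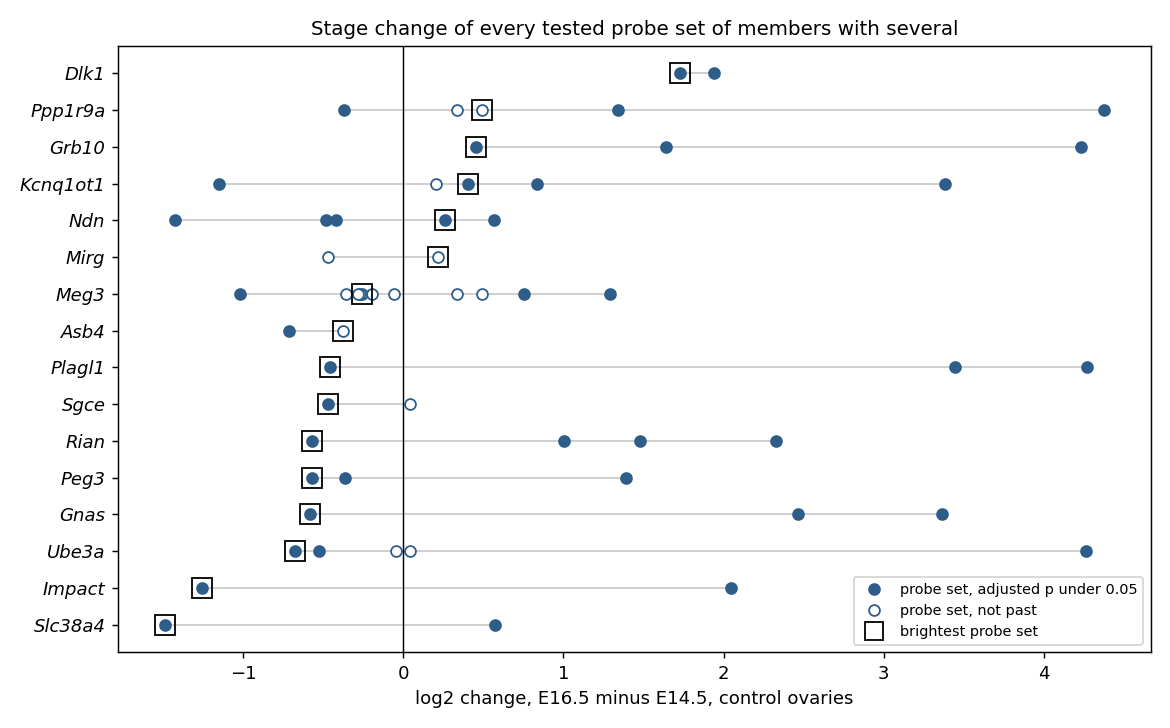
Change between the stages in control ovaries, E16.5 minus E14.5 on the log2 scale (horizontal axis), of every tested probe set of the 16 imprinted genes with several (rows). Filled points passed the test (adjusted p under 0.05 over all probe sets), open points did not, and a square marks the brightest probe set; 11 genes have filled points on both sides of 0, Ube3a from -0.68 to 4.26.

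The array controls for RNA length moved with the stage. The log2 difference between the 3′ and 5′ probe sets of Gapdh was 1.37 ± 0.31 in E16.5 KO and 1.75 ± 0.065 in E16.5 control arrays (SD, n = 4 each), against -0.33 ± 0.041 in E14.5 KO and -0.29 ± 0.20 in E14.5 control arrays (SD, n = 3 each). That of beta-actin moved the other way, with 0.15 and 0.24 at E16.5 against 0.87 and 0.86 at E14.5, the KO value given first at each stage. With the Gapdh difference as a covariate, 4 imprinted genes were called between the stages in controls and 5 in knockouts. The Gapdh difference nearly repeats the stage, so this fit cannot decide which stage changes remain without it. Of the 8 described above, Peg10 (5.39 ± 0.64) and Dlk1 (4.83 ± 1.37, in place of 1.73) were called in controls. Nnat (2.84 ± 0.86), Zim1 (2.80 ± 0.98) and Mkrn3 (-1.63, with a standard error of 1.002) were not called, with changes near those above or larger but wider errors. Usp29 (0.61 ± 1.31), Zdbf2 (0.40 ± 0.79) and Phlda2 (-1.58 ± 2.47) were not called and their changes were smaller than those above. In that fit Nnat was not called in the knockout comparison at E16.5 (log2 change -0.75, limma adjusted p = 0.306). Stage and the handling of the arrays cannot be told apart.

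Imprinted genes outside the list and genes that set or keep imprints were read in the same fits. Of 27 further imprinted genes tested, 0 passed in limma at E14.5 and 0 at E16.5 (3 and 5 at an unadjusted p under 0.05). Igf2, the paternally expressed fetal growth factor, was named after its values were seen. Its log2 change was 0.39 at the earlier stage (limma adjusted p = 0.596) and 0.36 at the later one (adjusted p = 0.257). Between the stages in controls, where 64.4% of all genes were called, 7 of the 27 were higher and 8 lower, among them Phactr2 (1.30), Dhcr7, the last enzyme of cholesterol synthesis (1.33), Ampd3 (1.01), Pde10a (-1.76), Ddc (-1.84) and Casd1 (-0.66). Of 17 tested regulators of imprints, 0 passed in limma in either knockout comparison (2 and 2 at an unadjusted p under 0.05). Between the stages in controls 6 rose and 11 fell, against 28.5% and 35.9% of all genes. Zfp57, a zinc finger protein that protects imprints, rose by 2.26 and Tet3, an enzyme that oxidises methylated DNA, by 2.43. Hells, a chromatin remodeller needed for DNA methylation, fell by 3.50. Zfp445, another protector of imprints, fell by 1.54, Setdb1 fell by 1.37 and Smchd1 fell by 0.93. The disagreement between probe sets bears on these stage values as on those of the imprinted genes.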

How the data were processed

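Expression was measured on 14 arrays of whole fetal ovary RNA, made with a PicoPure kit and the Affymetrix 3' IVT Express kit per the labels' protocols. The deposited values are linear intensity values per probe set. Per the submitters' processing notes, the tools were Affymetrix Expression Console and MAS5, with no version stated. Each deposited array had a trimmed mean of 500, which removes any difference in total RNA. The number of arrays limits the precision.

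Signals were taken as log2(signal + 16), so changes of dim genes are understated. The platform annotation gave a single symbol to 34945 of the 45037 non-control probe sets, several to 932 and none to 9160. Each gene was represented by its brightest probe set, and genes above the 40th percentile of mean signal (62.0) were tested. All 14 arrays entered 1 model of the 4 groups (limma 3.58.1 in R 4.3.3, lmFit and trended eBayes), tested two-sided with Benjamini-Hochberg adjustment over 12406 genes and a threshold of 0.05. A p adjusted over all tested probe sets is used only where probe sets of 1 gene are compared, for Nr2f2 and in the plot of probe sets. Figures used matplotlib 3.10.9 in Python 3.11.15. The steps were tested on simulated data.

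Members, parental classes, marker lists and tests were chosen with earlier results of these data known. Values on every array are given for members called in a knockout comparison, for the 5 with the largest knockout change among members whose arrays do not overlap at a stage, and for the 8 with the largest called change between stages in controls. Blcap, Mest, Peg3, Peg10 at E16.5, Dlk1, Meg3, Rian and Slc22a18 were named beyond that rule after their values were seen. Alternatives changed the pseudocount, scaling, filter, probe set, spread model and threshold, left out arrays, or added the Gapdh difference or the replicate number. Replicate numbers were checked as pairs: deviations of same-numbered arrays correlated by -0.048 to 0.43 across genes, below 0.1 in 4 of 7 pairs, so they were not treated as pairs.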

Additional observations from a re-analysis of the deposited data

Results flagged for a closer look

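In 66 groups of arrays (33 tested imprinted genes in 2 groups of 4), 3 held an array whose gap to the nearest other array was a large share of the group's range. Chance gives about 1 such group in 20. Nap1l4 had 3693 on E16.5 KO replicate 4, against 2899 to 2998 on the other E16.5 KO arrays. Ube3a had 4379.72 on E16.5 KO replicate 1, against 3965 to 3992 on the other E16.5 KO arrays. Plagl1 had 10438 on E16.5 control replicate 2, against 7817 to 7885 on the other E16.5 control arrays.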

How the results depend on the processing

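Over 28 other settings, 0 imprinted genes passed at E14.5 except without E14.5 KO replicate 3, which gave 1 (leaving out 1 array gave 0 to 1). At E16.5, 1 passed, against 2 with quantile normalization, 2 with only the arrays of the comparison, 3 at a threshold of 0.1, and 0 without the trend, without E16.5 KO replicates 1 and 4 together and with the Gapdh covariate; leaving out 1 array gave 0 to 3. Between stages, 24 in controls (20 to 27 with 1 array left out) and 19 in knockouts (16 to 20) became 4 and 5 with the Gapdh covariate. The difference between stages gave 0 in 27 settings and cannot be had from the arrays of 1 comparison. Over all genes, counts ran from 0 to 179 at E14.5 (5 as reported), the highest without E14.5 KO replicate 3, and from 16 to 494 at E16.5 (176 as reported), the highest without E16.5 KO replicate 2. The difference gave 0 of all genes, 1 without a filter, 1 without E16.5 control replicate 2 and 30 without E14.5 KO replicate 3. The Gapdh covariate left 701 and 1197 of 7993 and 7547 genes between the stages in controls and knockouts, and every probe set tested on its own gave 15691 and 15026 probe sets.

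With 1 array left out, the median log2 change of paternally expressed genes ran from 0.030 to 0.16 at E14.5 (0.011 to 0.14 for maternally expressed genes), from -0.023 to 0.055 at E16.5 and from -0.21 to -0.11 between stages in controls, and that of maternally expressed genes from -0.24 to 0.0011 between stages in knockouts. At E16.5 the mean of all probe sets gave -0.071 for maternally and -0.019 for paternally expressed genes, and paternally expressed genes had -0.027 with the 60th percentile filter, -0.052 without E16.5 KO replicates 1 and 4 together and -0.043 with the Gapdh covariate. Between stages in controls, maternally expressed genes had -0.13 with quantile normalization, -0.59 with median centring and -0.043 with the mean of probe sets. Paternally expressed genes had 0.16, -0.49 and 0.63 in these settings, -0.069 without a filter, 0.018 with the 60th percentile filter and 0.30 with the Gapdh covariate. In knockouts, maternally expressed genes had -0.24 with quantile normalization, -0.46 with median centring, -0.045 with the mean of probe sets, -0.21 without E16.5 KO replicates 1 and 4 together and -0.049 with the Gapdh covariate, and paternally expressed genes 0.042, -0.42, 0.54 and, with the Gapdh covariate, 0.080. Ndn at E16.5 turned to 0.041 with the mean of its probe sets. The stage change of Phlda2 in knockouts turned to 0.45 with the Gapdh covariate and ran from -0.76 to 0.54 with 1 array left out. The causes were not tested.

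With the replicate number as a block, 0 imprinted genes and 8 genes passed at E14.5, 1 and 256 at E16.5, and 24 imprinted genes between the stages in controls and 19 in knockouts. In controls the split was 11 higher and 13 lower in place of 9 and 15: Mest, Plagl1 and Rian were no longer called, and Gatm, Nap1l4 and Ppp1r9a were. The calls in knockouts were those without the block.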
